A study of Mus musculus with 12 samples.

Results

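The genes described here encode the machinery that fills synaptic vesicles, docks and primes them at the presynaptic membrane, fuses them when calcium enters and retrieves them afterwards. The set holds 44 genes, listed by symbol and found in the count table through their Ensembl mouse identifiers with the version dropped, using the names of the GENCODE mouse annotation, release 21. They are 44 of the 47069 genes in the table, and all 44 had enough counts to be among the 17286 genes tested, with between 187 and 93803 counts per library. Messenger RNA of the frontal cortex, bilateral tissue whose source is given as prefrontal cortex, was sequenced from male C57BL/6 mice in 12 libraries, 3 in each of 4 groups. The groups are knockout clozapine (HDAC2(loxP,loxP), CamKIIa-Cre(+,-) mice given clozapine at 10 mg per kg), knockout vehicle (the same genotype given vehicle), wild-type clozapine (wild-type mice given the same dose) and wild-type vehicle. The series title calls the clozapine treatment chronic. Clozapine is an atypical antipsychotic that blocks dopamine, serotonin and several other receptors, and Hdac2 encodes a histone deacetylase. The CamKIIa promoter drives Cre mainly in forebrain excitatory neurons, so other cells of the tissue would keep the floxed gene. The wild-type label names neither loxP alleles nor Cre, so the genotypes may differ in both.

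At a synapse, vesicles loaded with transmitter are tethered near calcium channels at the active zone by scaffold proteins such as RIM, Bassoon and Piccolo, and Munc13 proteins make them ready to fuse. Fusion is driven by the SNARE proteins on the vesicle and plasma membranes. It is held in check and triggered by complexins and by synaptotagmins, which bind calcium, and the membrane is then taken back by endocytosis. In the cortex most excitatory terminals load glutamate with VGLUT1, the product of Slc17a7.

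Promoter sequence is shown for 4 of the 6 genes that passed the test in at least 1 comparison below, because 4 of them (Rims3, Rims1, Unc13a and Stx1a) were lower together in knockout vehicle. RefSeq's table (GRCm38.p6) held an entry for 36 of the 44 genes, among them these 4, and no window for Rims2 and Syn3 was used. Each sequence is the 250 bases before the RefSeq start, 5′ to 3′ on the strand of the gene, with capitals marking a GC box, GGGCGG or its reverse complement CCGCCC, the core letters bound by Sp-family transcription factors. The windows are chr4:120854549-120854798 (plus strand) for Rims3, chr1:22806159-22806408 (minus strand) for Rims1, chr8:71671758-71672007 (minus strand) for Unc13a and chr5:135023232-135023481 (plus strand) for Stx1a.
Rims3: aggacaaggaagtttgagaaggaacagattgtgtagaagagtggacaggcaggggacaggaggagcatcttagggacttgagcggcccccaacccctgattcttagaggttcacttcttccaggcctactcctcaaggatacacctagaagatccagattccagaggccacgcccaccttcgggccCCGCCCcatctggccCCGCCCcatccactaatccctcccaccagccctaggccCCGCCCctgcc
Rims1: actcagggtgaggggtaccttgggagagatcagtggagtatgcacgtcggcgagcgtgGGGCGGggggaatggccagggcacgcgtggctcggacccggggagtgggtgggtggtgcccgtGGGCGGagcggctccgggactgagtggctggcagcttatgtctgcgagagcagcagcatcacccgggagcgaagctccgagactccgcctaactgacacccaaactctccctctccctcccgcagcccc
Unc13a: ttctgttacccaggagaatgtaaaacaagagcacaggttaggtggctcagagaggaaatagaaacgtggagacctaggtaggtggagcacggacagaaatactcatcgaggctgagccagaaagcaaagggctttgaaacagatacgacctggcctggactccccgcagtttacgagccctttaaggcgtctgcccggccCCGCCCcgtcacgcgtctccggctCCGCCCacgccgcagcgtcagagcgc
Stx1a: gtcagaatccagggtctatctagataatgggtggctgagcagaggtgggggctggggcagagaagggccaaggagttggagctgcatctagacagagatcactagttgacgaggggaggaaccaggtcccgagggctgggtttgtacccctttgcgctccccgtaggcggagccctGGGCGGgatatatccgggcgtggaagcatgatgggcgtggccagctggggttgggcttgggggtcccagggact
The Rims3 window holds 3 GC boxes, those of Rims1 and Unc13a hold 2 each and that of Stx1a holds 1. A GC box was found in 27 of the 45 windows of the gene set (60.0%) and in 32.7% of all 32851 windows of this length. Searched on both strands, the cyclic AMP response element TGACGTCA, the E-box CACGTG and the TATA box TATAAA were not among the letters of these 4 windows, and 1.5%, 6.0% and 12.4% of all windows hold them. The searched motifs do not overlap each other in these windows. The G and C content of the 4 windows is 59.6%, 68.0%, 58.0% and 62.0%, against a median of 52.4% over all windows. These matches describe letters and do not show that a factor binds there.

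Total counts lay between 23408372 and 28069638 per library. Hdac2 was not lower in the libraries labelled knockout, with 70.5 to 73.9 CPM in knockout clozapine, 73.3 to 76.6 in knockout vehicle, 72.4 to 75.5 in wild-type clozapine and 63.4 to 75.7 in wild-type vehicle. Counts over the whole gene do not check the loss of single exons, so the genotype is given below as labelled. CPM are counts scaled to library size after scaling by TMM, a method that corrects library sizes for composition. Nothing in the labels says whether libraries of a group come from separate animals, so p-values cover only the spread among libraries, which may be partly technical. A pair of libraries stands apart. Knockout vehicle 5 was the deepest, and its values for the gene set lay low, with 39 of 44 genes under their own mean over all libraries and a median deviation of -0.13 on the log2 scale. In the other 11 libraries this median lay between -0.05 and 0.06. Wild-type vehicle 3 held 53.3 CPM of Ttr, a gene of the choroid plexus, against 0.29 to 4.15 CPM in the other 11.

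**Figure D1:**
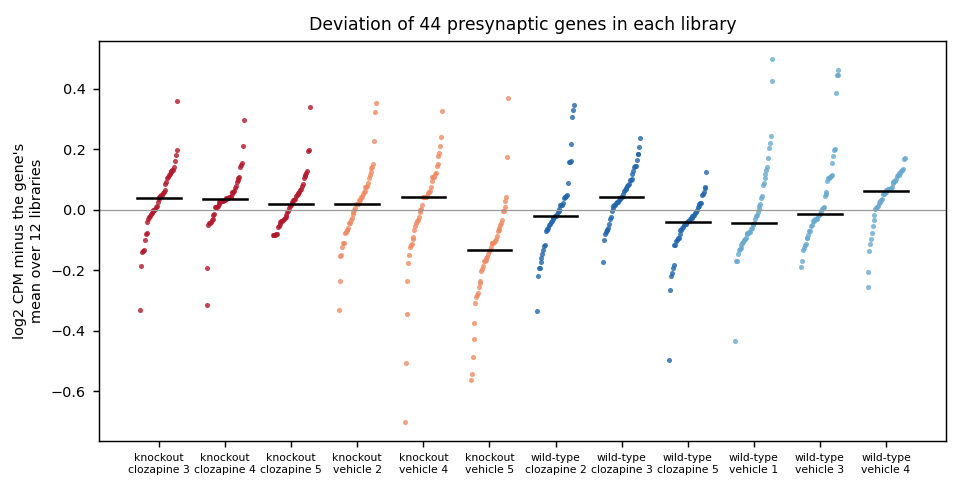
Each point is 1 of 44 presynaptic genes, plotted as its log2 CPM minus the mean of that gene over 12 libraries; the libraries run along the horizontal axis and the black line is the median in each. The median of knockout vehicle 5 lies at -0.13, below the range of -0.05 to 0.06 in the others.

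The levels of the 44 genes spanned more than 2 orders of magnitude per length of exon, and most genes varied little between libraries. Levels between genes are compared as CPM per kilobase of exon, averaged over the 12 libraries. Snap25, the plasma-membrane SNARE with a pair of helices, was the highest of all at 502 CPM per kilobase, and Cplx1, a complexin that clamps and promotes fusion, followed at 475. Dnm1, the dynamin that cuts vesicles from the membrane, was at 321 and Slc17a7 at 314, and their ranges over libraries overlapped (285 to 347 and 273 to 356 CPM per kilobase). Rab3a, a vesicle GTPase that binds RIM proteins, was at 283 CPM per kilobase and was the highest active zone and priming gene.

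Within each role, close relatives sat at very different levels. Among the synapsins, which tether vesicles to one another, Syn1 was at 191 CPM per kilobase and Syn3 at 0.918, the lowest of the 44. Among calcium sensors, Syt1, the fast sensor of forebrain synapses, was at 178 and Syt2, the fast sensor of many hindbrain and fast-spiking inhibitory synapses, was at 17.0. Slc17a7 stood above Slc17a6, the glutamate transporter VGLUT2 of thalamic and other subcortical inputs, which was at 4.71 CPM per kilobase, and Sv2c was the lowest vesicle-membrane gene at 3.59. Cplx3, a complexin of ribbon synapses and some deep cortical neurons, was at 4.61 CPM per kilobase, far below Cplx1. Of the Munc13 genes, Unc13a was at 41.7, Unc13c at 2.84 and Unc13b at 2.06 CPM per kilobase. Rims3 was at 63.0, Rims1 at 38.9 and Rims2 at 8.74, and the scaffolds Bsn, Erc2, Pclo and Erc1 were at 30.8, 16.2, 7.75 and 2.26.

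The remaining genes lay between these ends. Syp, encoding synaptophysin, was at 179 CPM per kilobase, and the synaptogyrin genes Syngr1 and Syngr3 were at 146 and 83.8. Sv2a and Sv2b, encoding vesicle glycoproteins, were at 109.6 and 61.9, and Syn2 was at 67.8 CPM per kilobase. The synaptotagmin genes Syt11, Syt5, Syt7 and Syt4 were at 166.5, 71.2, 41.2 and 40.9, of which Syt7 and Syt4 overlapped over their libraries. Nsf, Napb and Napa, whose products take spent SNARE complexes apart, were at 113, 75.3 and 73.3 CPM per kilobase, the last pair overlapping. Vamp2 and Cplx2 were at 262 and 259 and overlapped, Stx1a was at 167, and Vamp1, a vesicle SNARE most used in the spinal cord and brainstem, was at 25.2. Ppfia3 was at 39.3, Rab3c at 24.2 and Rab3b at 11.8 CPM per kilobase. The endocytic genes Amph, encoding amphiphysin, and Synj1, encoding synaptojanin, were at 49.7 and 44.5.

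**Figure D2:**
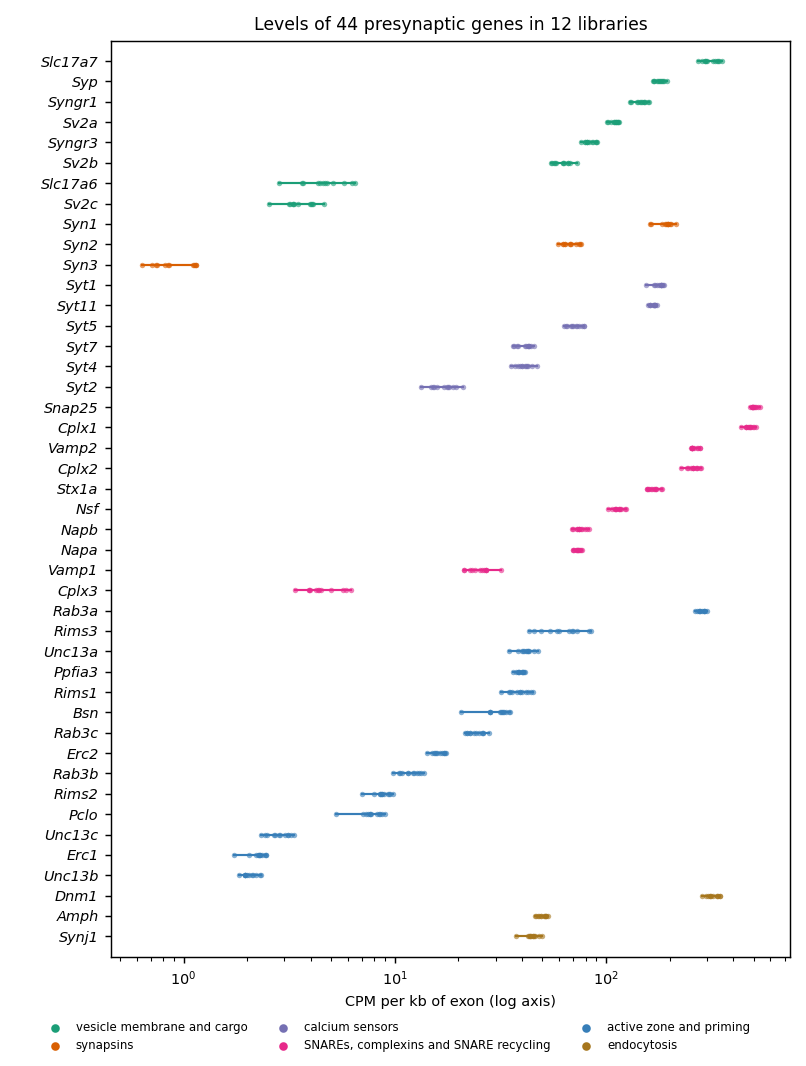
Levels of the 44 genes grouped by role, in CPM per kilobase of exon on a log axis, with 1 point per library and a line from the lowest to the highest of 12 libraries. Snap25 lies highest at 502 and Syn3 lowest at 0.918.

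The ratio of the highest to the lowest of the 12 libraries was under 1.5 in 36 of the 44 genes, with a median of 1.28. The narrowest gene had a ratio of 1.10, and the widest was Slc17a6 with 2.30. Slc17a6 was at 19.7, 19.9 and 23.4 CPM in knockout clozapine, 25.1, 15.2 and 24.7 in knockout vehicle, 31.1, 27.4 and 25.7 in wild-type clozapine, and 35.0, 33.8 and 23.9 in wild-type vehicle. Its libraries overlapped between the genotypes under vehicle, while all 3 knockout clozapine libraries lay under all 3 wild-type clozapine libraries, and neither genotype difference passed the test (edgeR quasi-likelihood test, BH adjusted p = 0.155 under vehicle and 0.353 under clozapine). Replicates of a group spread by a median SD of 0.0995 on the log2 scale, lowest for Ppfia3, a liprin of the active zone, at 0.036 and highest for Cplx3 at 0.278.

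Without drug, the genotype comparison asks how the labelled Hdac2 conditional knockout differs from wild type, and here 5 of the 44 genes were lower in knockout vehicle than in wild-type vehicle and none was higher past the test. Of the 5, 4 act at the active zone: Rims3, Rims1, Rims2 and Unc13a. The fifth is Stx1a, encoding syntaxin-1A, the plasma-membrane SNARE that Munc13 proteins open. The 5 genes are 11.4% of the set, beside 9.16% of all genes tested that passed in either direction and 5.15% that passed as lower (edgeR quasi-likelihood test, BH adjusted p under 0.05 over 17286 genes), so the share of called genes is near that of all genes in either direction. At an unadjusted p under 0.05 there were 15, 3 higher and 12 lower, beside 23.8% of all genes. Without knockout vehicle 5 the counts at that p were 8 higher and 10 lower (19.7% of all genes), and without wild-type vehicle 3 they were 2 and 8 (18.8%). Differences in a bulk tissue cannot tell fewer cells of a type from less RNA per cell.

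Rims3, which encodes a short RIM protein that lacks most RIM domains and keeps the C-terminal C2B domain, showed the largest difference of the set. Its level was 390.6, 345.8 and 365.0 CPM in knockout vehicle, against 660.2, 676.3 and 553.7 CPM in wild-type vehicle. Every knockout vehicle library lay under every wild-type vehicle library, with means of 367.2 ± 22.5 and 630.1 ± 66.6 CPM (SD, n = 3 each). The log2 difference was -0.78 (SE 0.07, 95% interval -0.93 to -0.63, edgeR adjusted p = 2.15e-05), a fitted change of -41.7%. It passed in each of the 12 fits that left out 1 library, with log2 differences of -0.86 to -0.73. The gene (ENSMUSG00000032890.17) lies on chromosome 4, 120854816 to 120896579, plus strand, GRCm38.

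Rims1, encoding RIM1, the scaffold that joins Rab3 on vesicles to Munc13 and to calcium channels, was at 264.2, 256.7 and 233.2 CPM in knockout vehicle, against 331.7, 326.4 and 313.0 CPM in wild-type vehicle. The groups did not overlap. Its log2 difference was -0.36 (SE 0.06, edgeR adjusted p = 0.00214) and it also passed in all 12 fits without 1 library, at -0.40 to -0.31. Rims2, encoding the related scaffold RIM2, was lower by a smaller amount, at 88.3, 83.0 and 73.0 CPM in knockout vehicle against 101.8, 96.6 and 90.6 CPM in wild-type vehicle. The knockout library closest to wild type was 88.3 and the wild-type library closest to knockout was 90.6, so the groups are just apart. Its log2 difference was -0.24 (SE 0.07, edgeR adjusted p = 0.0357). Rims1 (ENSMUSG00000041670.15) lies on chromosome 1, 22286251 to 22805994, and Rims2 (ENSMUSG00000037386.15) on chromosome 15, 39198261 to 39684372.

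Unc13a, encoding Munc13-1, the main priming factor of cortical excitatory synapses, was at 482.1, 509.0 and 439.7 CPM in knockout vehicle, against 514.0, 602.6 and 572.8 CPM in wild-type vehicle. The nearest libraries of the groups were at 509.0 and 514.0 CPM, so the groups are just apart. The log2 difference was -0.24 (SE 0.06, edgeR adjusted p = 0.0257). Unc13a (ENSMUSG00000034799.16, chromosome 8, 71624417 to 71671757) shares 495 bases of exon with Colgalt1 on the opposite strand, and whether strand was used in counting is not stated, so reads there cannot be told apart. Colgalt1 itself did not pass (log2 difference 0.00, edgeR adjusted p = 0.995). Stx1a was at 424.9, 418.9 and 419.4 CPM in knockout vehicle, the tightest group of the gene, and at 491.9, 459.4 and 484.3 CPM in wild-type vehicle. Its groups did not overlap and its log2 difference was -0.18 (SE 0.05, edgeR adjusted p = 0.0258). Stx1a (ENSMUSG00000007207.10) lies on chromosome 5, 135023482 to 135051100.

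These smaller differences depended on single libraries. Without knockout vehicle 5, Rims3 and Rims1 still passed as lower, Syn3 passed as higher, and the adjusted p was 0.0888 for Unc13a, 0.0517 for Stx1a and 0.149 for Rims2. Unc13a also missed the threshold without knockout vehicle 2 (edgeR adjusted p = 0.0665), wild-type vehicle 3 (0.134) or wild-type vehicle 4 (0.0621). Stx1a missed it without knockout vehicle 2 (edgeR adjusted p = 0.0744), knockout vehicle 4 (0.0573), wild-type vehicle 1 (0.0899) or wild-type vehicle 4 (0.0659). Rims2 missed it without knockout vehicle 4 (edgeR adjusted p = 0.0550), wild-type vehicle 1 (0.130) or wild-type vehicle 3 (0.106). The number of genes called was 3 without knockout vehicle 2, 4 or 5 or wild-type vehicle 1, and 4 without wild-type vehicle 3.

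**Figure D3:**
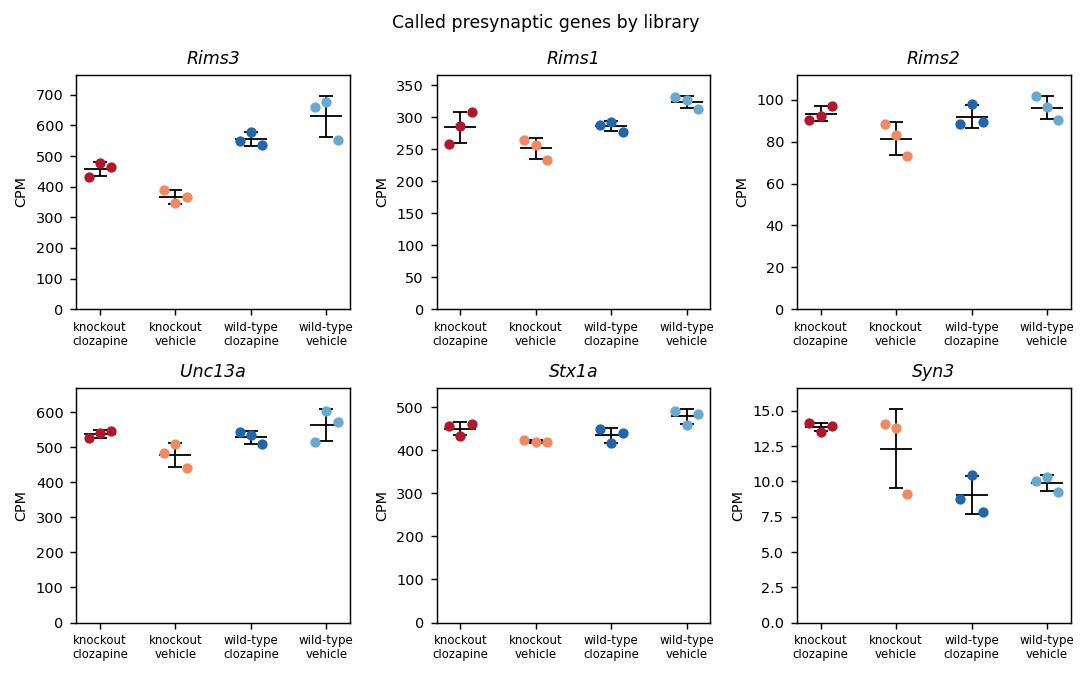
CPM per library of the 6 genes that passed in a comparison, in the 4 groups, with the mean and SD of 3 libraries in black. Rims3 lies between 345.8 and 390.6 CPM in knockout vehicle and between 553.7 and 676.3 CPM in wild-type vehicle, and Syn3 lies between 13.5 and 14.1 CPM in knockout clozapine and between 7.82 and 10.5 CPM in wild-type clozapine.

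Other active zone genes had log2 differences of either sign that missed the threshold. Bsn, encoding the giant scaffold Bassoon, was at 450.6, 448.9 and 328.9 CPM in knockout vehicle, against 499.2, 524.3 and 509.6 CPM in wild-type vehicle (log2 difference -0.32, edgeR adjusted p = 0.0769). Its lowest value came from knockout vehicle 5, and the same library was lowest for Pclo, encoding the Bassoon-like scaffold Piccolo, at 118.4 CPM against 164.1 and 159.3 CPM in the other knockout vehicle libraries (log2 difference -0.25, edgeR adjusted p = 0.173). Rab3b, a relative of Rab3a, went the other way, with 48.5, 44.7 and 46.8 CPM in knockout vehicle, against 37.4, 38.0 and 43.2 CPM in wild-type vehicle (log2 difference 0.24, edgeR adjusted p = 0.0502). DESeq2 and limma-voom called Rab3b as higher, and DESeq2 alone called Bsn as lower.

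Outside the active zone and Stx1a, no gene passed under vehicle in edgeR, while DESeq2 also called Sv2c and Cplx2 as lower. The 8 vesicle-membrane and cargo genes had a median log2 difference of 0.04, from -0.50 for Slc17a6 to 0.13 for Sv2b, and Sv2c, at -0.44, had the smallest adjusted p among them (edgeR, 0.0573). For the 10 SNARE, complexin and SNARE-recycling genes the median was -0.06, and Snap25, the most abundant, differed by -0.06 with an interval of -10.9% to 2.96%. Vamp2, the vesicle SNARE, differed by 0.01, and the interval ran from -6.44% to 8.91%. Syt1 differed by -0.02, with an interval of -10.3% to 8.63%. The 3 endocytosis genes had a median of -0.02. Over the whole set 18 log2 differences were above 0 and 26 below, with a median of -0.04 beside 0.004 for all genes, and without knockout vehicle 5 the counts were 23 and 21 with a median of 0.007. The intervals of 29 of the 44 genes lay within 1.25-fold in both directions, as did 45.0% of all genes.

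In 13 of the 44 genes (29.5%) the 3 knockout vehicle libraries did not overlap the 3 wild-type vehicle libraries, beside 27.3% of all genes. Of the 44 genes, 12 were apart as lower, beside 14.1% of all genes, and 1 as higher, beside 13.2%. With the 2 knockout vehicle libraries left after leaving out knockout vehicle 5, 13 genes were apart as lower, beside 18.4% of all genes in the same comparison of 2 with 3 libraries, and 8 as higher, beside 18.2%. Along the 44 genes the log2 difference had a Spearman correlation of -0.33 with exon length, beside -0.21 over 17197 genes. Within knockout vehicle 5 the correlation of its deviations with length was -0.29 over genes, outside the range of -0.14 to 0.22 in the other libraries. The part of length in these differences was not tested beyond the fit corrected for length and GC content.

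**Figure D4:**
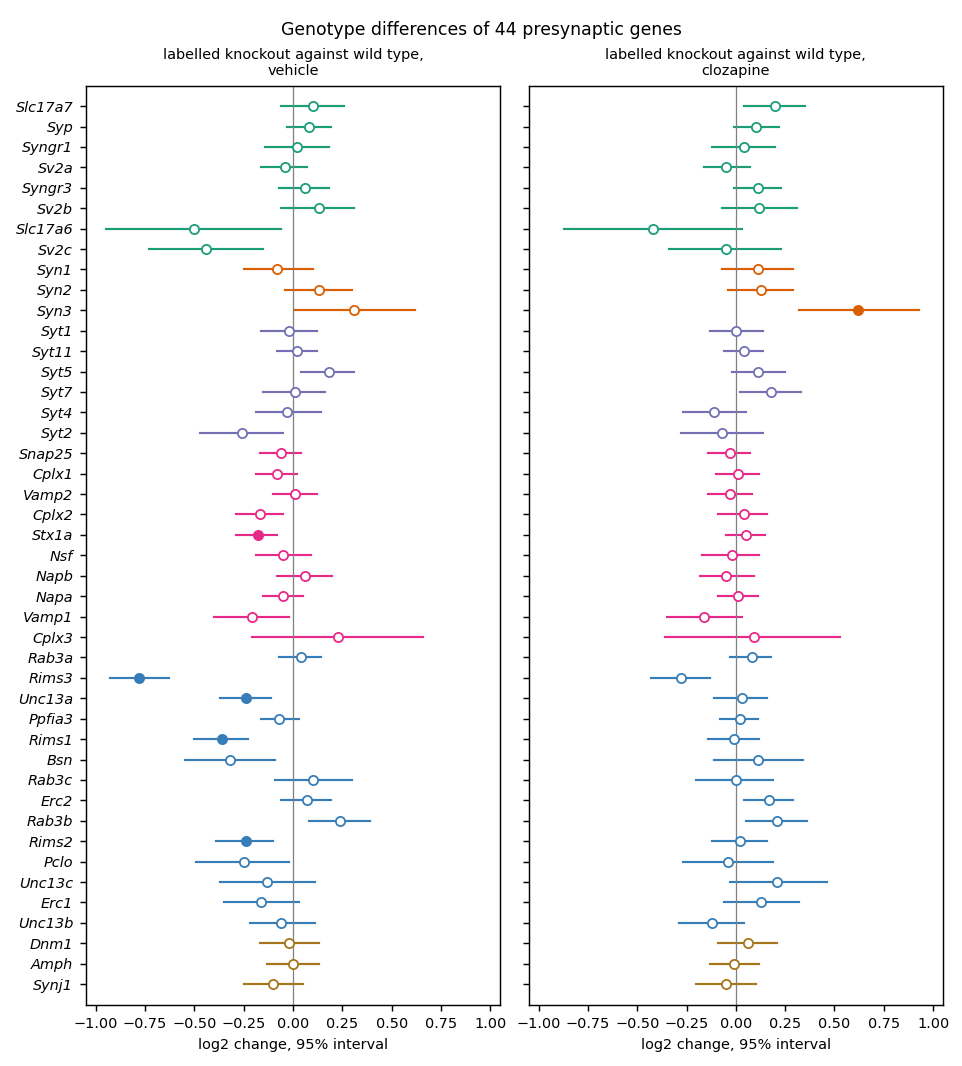
Log2 difference of labelled knockout against wild type for each of the 44 genes, under vehicle on the left and under clozapine on the right, with 95% intervals, colours by role and filled points where the BH adjusted p is under 0.05. Under vehicle 5 genes are filled, all below 0 and led by Rims3 at -0.78, and under clozapine Syn3 alone is filled at 0.62.

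In mice given clozapine, the genotypes differed past the test in 1 of the 44 genes, Syn3, which was higher in knockout clozapine. That is 2.27% of the set, beside 1.48% of all genes that passed as higher. Syn3 encodes synapsin III, a synapsin of low abundance in adult terminals. It was at 14.1, 13.5 and 13.9 CPM in knockout clozapine, against 8.74, 10.5 and 7.82 CPM in wild-type clozapine. The groups were well apart, and the log2 difference was 0.62 (SE 0.14, 95% interval 0.32 to 0.93, edgeR adjusted p = 0.0373). Under vehicle, knockout libraries 2 and 4 held 14.1 and 13.8 CPM, knockout vehicle 5 held 9.10 CPM, and wild-type vehicle held 10.1, 10.3 and 9.24 CPM, a log2 difference of 0.31 that did not pass (edgeR adjusted p = 0.192). The difference under clozapine missed the threshold without any 1 of knockout clozapine 3, 4 or 5, wild-type clozapine 2 or 5, or wild-type vehicle 3, with adjusted p of 0.155, 0.0888, 0.0917, 0.0888, 0.124 and 0.0511 in that order.

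Reads of Syn3 need care, since the gene (ENSMUSG00000059602.14, chromosome 10, 86055125 to 86498896) has Timp3 inside it on the opposite strand, and the genes share 1733 bases of exon. Timp3, an inhibitor of metalloproteinases, was at 59.3, 59.5 and 62.0 CPM in knockout clozapine and at 56.4, 49.6 and 54.5 CPM in wild-type clozapine. Its libraries did not overlap either, and its log2 difference was 0.17 (edgeR adjusted p = 0.158). Because strand use is not stated, reads from the shared bases cannot be told apart, and the part of Timp3 in the Syn3 counts was not tested.

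The genes of smallest p after Syn3 did not pass in edgeR, though DESeq2, unlike limma-voom, called Rims3 as lower. Rims3 was at 431.9, 476.6 and 465.0 CPM in knockout clozapine and at 548.2, 579.7 and 535.1 CPM in wild-type clozapine, with no overlap (log2 difference -0.28, edgeR adjusted p = 0.0548). Rab3b was at 40.8, 45.8 and 42.9 CPM in knockout clozapine, against 40.9, 36.8 and 34.5 CPM in wild-type clozapine (log2 difference 0.21, edgeR adjusted p = 0.167). The difference in Rab3b under vehicle was of like size, and both missed the threshold in edgeR. Rims1 showed almost no difference here, at 258.9, 287.0 and 307.5 CPM in knockout clozapine and 288.2, 293.1 and 277.4 CPM in wild-type clozapine (log2 difference -0.01, interval -9.29% to 8.87%). Over the set 27 differences were above 0 and 17 below, the median was 0.02 beside -0.005 for all genes, and 33 of 44 intervals lay within 1.25-fold, as did 49.0% of all genes. The groups did not overlap in 11 of the 44 genes, beside 22.5% of all genes. Cell type markers also differed in this comparison. Of 6 excitatory neuron markers Camk2a was higher (log2 difference 0.26, edgeR adjusted p = 0.0377), while 3 differences were above 0 and 3 below, with a median of 0.01. Their sums were 9275 to 9665 CPM in knockout clozapine and 8204 to 8482 CPM in wild-type clozapine. Slc17a7, itself a gene of the set, is among these markers. Of 6 upper-layer markers Cux2 was higher (0.29, edgeR adjusted p = 0.0280), and of 8 oligodendrocyte markers, all below 0 with a median of -0.25, Ermn was lower (-0.71, 0.0212). None of 7 deep-layer markers passed, with sums of 167.3 to 189.5 CPM in knockout clozapine and 199.9 to 266.2 CPM in wild-type clozapine. Their part in the differences of the set was not tested.

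Clozapine against vehicle was compared within each genotype, which asks what the drug does with and without the labelled knockout. In the labelled knockout, none of the 44 genes passed in edgeR, beside 0.0231% of all genes, which is 4 genes. The active zone genes had a median log2 difference of 0.17, and the whole set one of 0.05. At an unadjusted p under 0.05 there were 11 genes, all higher in knockout clozapine, which is 1 in 4 of the set beside 12.2% of all genes. DESeq2 called 2, Bsn and Rims3, and limma-voom called 0.

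Rims3 was at 431.9, 476.6 and 465.0 CPM in knockout clozapine, against 390.6, 345.8 and 365.0 CPM in knockout vehicle. All libraries of the drug group were higher, with a log2 difference of 0.32 (95% interval 0.17 to 0.47, edgeR adjusted p = 0.0879). Bsn was at 551.4, 562.3 and 510.1 CPM in knockout clozapine and at 450.6, 448.9 and 328.9 CPM in knockout vehicle (log2 difference 0.40, edgeR adjusted p = 0.144). Syt2 was at 120.7, 137.7 and 148.2 CPM in knockout clozapine and at 116.3, 101.7 and 113.6 CPM in knockout vehicle (log2 difference 0.29, edgeR adjusted p = 0.226). In each of these genes the groups did not overlap. The groups were apart in 12 genes of the set (27.3%), beside 18.7% of all genes. Of the 44 genes, 11 were apart as higher, beside 9.72% of all genes, and 1 as lower, beside 8.97%.

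Most of this shift moved with 1 library. With knockout vehicle 5 in the fit, 33 genes were above 0 and 11 below. Without it the counts were 20 and 24, and the median was -0.003. At an unadjusted p under 0.05, 5 genes were then higher and 1 lower, beside 8.72% of all genes. The groups, now 3 and 2 libraries, were then apart as higher in 12 genes and as lower in 7, each beside 14.1% of all genes. Rims3 kept a log2 difference of 0.31 without it (edgeR adjusted p = 0.275) and Bsn had one of 0.27 (0.240). Along the 44 genes the clozapine difference in the labelled knockout had a Spearman correlation of 0.50 with exon length, beside 0.18 over all genes. None of the excitatory or layer markers passed for clozapine in the labelled knockout. All 6 upper-layer markers were above 0, with a median of 0.27 and sums of 1212 to 1274 CPM in knockout clozapine and 1053 to 1136 CPM in knockout vehicle. All 7 deep-layer markers were below 0, with a median of -0.22 and sums of 167.3 to 189.5 CPM in knockout clozapine and 198.1 to 245.0 CPM in knockout vehicle. The excitatory markers summed to 9275 to 9665 CPM in knockout clozapine and 8160 to 8923 CPM in knockout vehicle, without overlap. Of these 6 markers 5 were above 0 and 1 below, with a median of 0.03. The part of these markers in the shift was not tested.

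In wild-type mice none of the 44 genes passed with edgeR, beside 0.816% of all genes, and DESeq2 and limma-voom also called 0. At an unadjusted p under 0.05 there were 4, all lower in wild-type clozapine, beside 11.6% of all genes at that p. Without wild-type vehicle 3 there were 2, both lower, beside 9.88%. Rims1 was at 288.2, 293.1 and 277.4 CPM in wild-type clozapine, against 331.7, 326.4 and 313.0 CPM in wild-type vehicle (log2 difference -0.18, edgeR adjusted p = 0.230). Stx1a was at 450.3, 416.0 and 439.7 CPM in wild-type clozapine and at 491.9, 459.4 and 484.3 CPM in wild-type vehicle (log2 difference -0.14, edgeR adjusted p = 0.239). Rims3 was at 548.2, 579.7 and 535.1 CPM in wild-type clozapine and at 660.2, 676.3 and 553.7 CPM in wild-type vehicle (log2 difference -0.18, edgeR adjusted p = 0.282). Rims1 and Stx1a did not overlap between the groups, and the Rims3 libraries did. The fourth gene was Cplx2, a complexin, with a log2 difference of -0.13 (edgeR adjusted p = 0.411). Of 6 upper-layer markers Cux2 was lower in wild-type clozapine (log2 difference -0.29, edgeR adjusted p = 0.0417). The list as a whole had 4 differences above 0 and 2 below, with a median of 0.05. The 7 deep-layer markers were all above 0 with a median of 0.45, none past the test. None of 6 excitatory markers passed, with 1 difference above 0 and 5 below and a median of -0.07. Their sums were 8204 to 8482 CPM in wild-type clozapine and 8683 to 9627 CPM in wild-type vehicle, without overlap. The part of these markers was not tested.

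The intervals give the size of drug effect these libraries leave room for. In wild-type mice the interval of 37 of the 44 genes lay within 1.25-fold in both directions, beside 51.7% of all genes, and in the labelled knockout that of 32, beside 51.2%. Snap25 differed by 0.00 in wild type, with an interval of -6.90% to 7.55%, and Syt1 by 0.04, with one of -6.74% to 12.9%. Slc17a7 differed by -0.07 in wild type (interval -14.4% to 6.21%). The low Cplx3 gave the widest interval in wild type, -31.4% to 27.5%. In wild type 17 of the 44 differences were above 0 and 27 below, with a median of -0.02 beside 0.005 for all genes, and the groups were apart in 3 genes (6.82%), beside 15.6% of all genes.

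**Figure D5:**
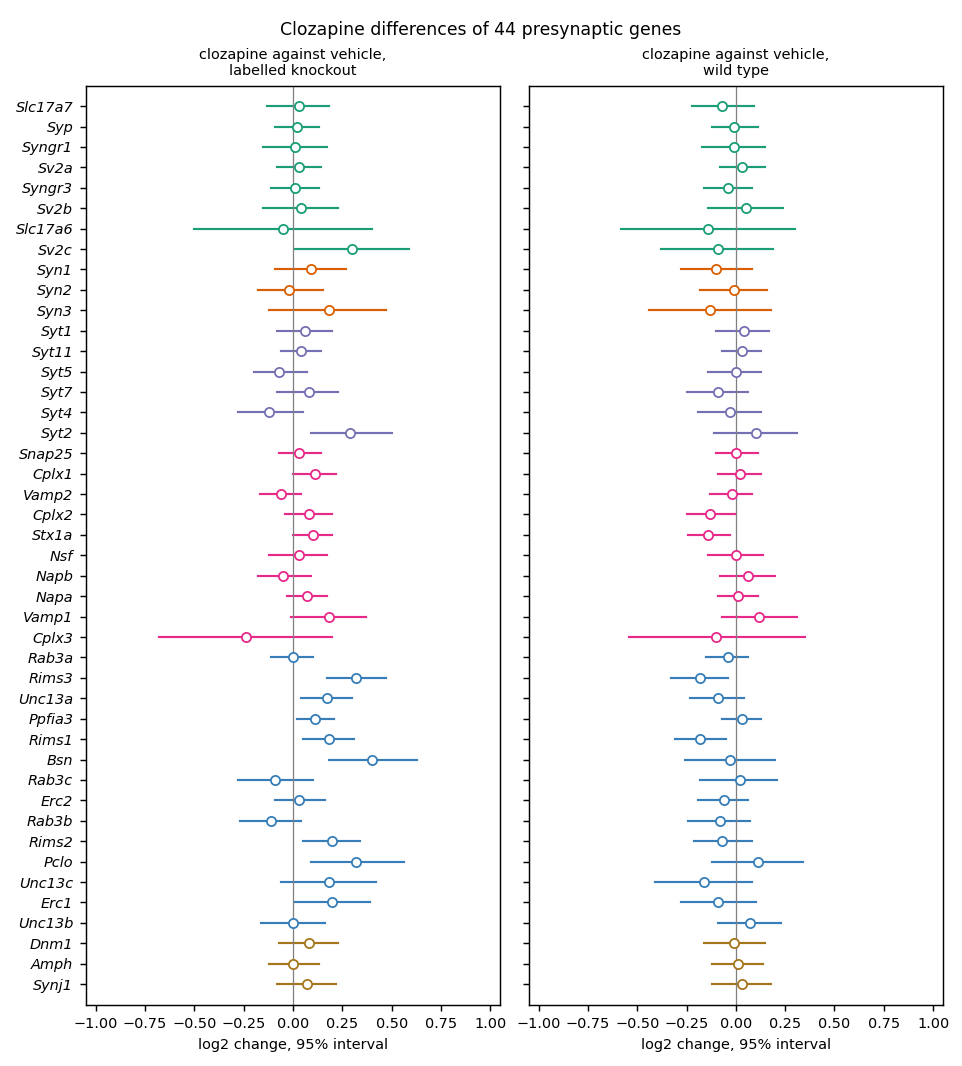
Log2 difference of clozapine against vehicle for each of the 44 genes, in the labelled knockout on the left and in wild type on the right, with 95% intervals and colours by role; open points did not pass. No point is filled, and the largest difference is that of Bsn in the labelled knockout, 0.40.

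The interaction asks whether the clozapine difference depends on genotype (labelled knockout minus wild type), and it passed for 1 of the 44 genes, Rims3. That is 2.27% of the set, beside 0.654% of all genes in either direction and 0.526% as higher, in a contrast that uses the same libraries as the comparisons above. Rims3 had a log2 interaction of 0.50 (SE 0.10, 95% interval 0.29 to 0.72, edgeR adjusted p = 0.0361): the clozapine group was above vehicle in the labelled knockout by 0.32 and below it in wild type by a difference of -0.18, and neither passed on its own. It passed in 4 of the 12 fits without 1 library. It missed the threshold without knockout clozapine 3 (edgeR adjusted p = 0.0676), 4 (0.0934) or 5 (0.0773), knockout vehicle 5 (0.0785), wild-type clozapine 2 (0.0519) or 5 (0.101), or wild-type vehicle 1 (0.0799) or 3 (0.0913), although the log2 interaction without knockout vehicle 5 was again 0.50. Rims1 at 0.36 (edgeR adjusted p = 0.0794) and Stx1a at 0.23 (0.140) were next and did not pass. DESeq2 called both of these genes, and limma-voom neither. The interaction was above 0 in 32 genes and below 0 in 12, with a median of 0.05 beside -0.007 for all genes. Without knockout vehicle 5 the counts were 27 and 17 with a median of 0.024, and without wild-type vehicle 3 they were 34 and 10 with a median of 0.064.

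Related genes outside the set, from lists of the same pathway, were read in the same fit. Of 54 tested further presynaptic genes, 3 were higher and 5 lower in knockout vehicle than in wild-type vehicle. Of all genes tested, 9.16% passed in either direction and 5.15% as lower. The median log2 difference of the 54 was 0.01, beside 0.004 for all genes. Syt13, an unusual synaptotagmin that does not bind calcium, was at 322.9, 326.1 and 317.8 CPM in knockout vehicle, against 440.4, 462.9 and 427.9 CPM in wild-type vehicle (log2 difference -0.46, edgeR adjusted p = 6.52e-05). Rims4, which like Rims3 encodes a short RIM protein, was at 139.4, 142.9 and 132.0 CPM in knockout vehicle, against 179.4, 182.9 and 164.7 CPM in wild-type vehicle (log2 difference -0.35, edgeR adjusted p = 0.00227). Both passed in all 12 fits without 1 library, and neither overlapped between the groups. Syt12, another synaptotagmin, was lower too (log2 difference -0.40, edgeR adjusted p = 0.00352). Of the 4 RIM genes of the mouse, 3 are in the set and Rims4 is the other, and all 4 passed as lower in knockout vehicle, a grouping chosen after their values were seen.

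Under clozapine 2 of these 54 genes were higher in the labelled knockout, beside 1.48% of all genes that passed as higher. The list median was 0.04, beside -0.005 for all genes. Syt17, a synaptotagmin-like protein, was at 62.3, 55.7 and 49.9 CPM in knockout clozapine and at 31.9, 41.0 and 36.7 CPM in wild-type clozapine (log2 difference 0.61, edgeR adjusted p = 0.0181). Doc2b, a calcium sensor of spontaneous release, was at 15.9, 14.7 and 12.9 CPM in knockout clozapine and at 8.83, 10.4 and 9.74 CPM in wild-type clozapine (log2 difference 0.59, edgeR adjusted p = 0.0272). Syt17 kept its call in 9 of 12 fits without 1 library and lost it without knockout clozapine 3 or 4 or wild-type clozapine 5. Doc2b kept its call in 7 and lost it without knockout clozapine 3 or 4 or any 1 of the wild-type clozapine libraries. Syt13 was the 1 gene of the list that was lower in wild-type clozapine than in wild-type vehicle (log2 difference -0.32, edgeR adjusted p = 0.00779), a call lost without wild-type vehicle 3 (0.0565). Over all genes tested, 0.816% passed in either direction for clozapine in wild type.

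The calcium channel genes of the release site held 3 of 10 that were lower in knockout vehicle and none higher, beside 5.15% of all genes that passed as lower, with a median of -0.13 beside 0.004 for all genes. Cacna1a, encoding the pore of P/Q-type channels that RIM proteins anchor, was at 214.5, 215.6 and 195.9 CPM in knockout vehicle, against 259.5, 268.5 and 254.1 CPM in wild-type vehicle (log2 difference -0.32, edgeR adjusted p = 0.00179). It passed in all 12 fits without 1 library, while Cacnb4 and Cacnb1, encoding channel beta subunits, passed in 6 and 2 of them. Cacnb4 missed the threshold without knockout clozapine 4, knockout vehicle 2, 4 or 5, or wild-type vehicle 1 or 3, and Cacnb1 passed only without knockout vehicle 4 or wild-type clozapine 3. In knockout clozapine Cacna1a was at 249.2, 257.2 and 264.2 CPM and in wild-type clozapine at 241.2, 239.9 and 220.0 CPM. Its log2 interaction was 0.46 (edgeR adjusted p = 0.0150), and it passed in 10 of 12 fits, missing the threshold without knockout clozapine 5 or wild-type vehicle 3. Cacnb3 was higher in knockout clozapine than in wild-type clozapine (log2 difference 0.26, edgeR adjusted p = 0.0124), a call lost without knockout clozapine 3 or 5 or wild-type clozapine 3. All 10 channel genes were above 0 for clozapine in the labelled knockout, with a median of 0.13 beside -0.002 for all genes, and none passed. Knockout vehicle 5 was the lowest of its group for Cacna1a and for Cacna1b, the latter at 110.4 CPM against 131.5 and 136.9. The part of that library in this shift of the list was not tested.

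Among 29 endocytosis and clathrin genes, 7 were lower in knockout vehicle and none higher, beside 5.15% of all genes that passed as lower, while the 3 endocytosis genes of the set did not pass. Synj2, a relative of Synj1, was at 92.0, 93.0 and 78.9 CPM in knockout vehicle, against 162.7, 164.1 and 144.1 CPM in wild-type vehicle (log2 difference -0.84, edgeR adjusted p = 6.52e-05). Ston2, a vesicle-sorting adaptor, differed by -0.62 (edgeR adjusted p = 0.00567), Hspa8, the chaperone that uncoats clathrin vesicles, by -0.26 (0.0108) and Itsn1, a scaffold of endocytosis, by -0.24 (0.0110), a call lost without wild-type vehicle 3 (0.0683). The median of the 29 was -0.06, beside 0.004 for all genes. None of 16 vesicle proton pump genes passed in any of the 5 contrasts, and their median differences lay between -0.06 and 0.04.

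Cell type markers were read beside these results, and their part in them was not tested. Under vehicle, none of 6 excitatory neuron markers passed, and their summed level ranged from 8160 to 8923 CPM in knockout vehicle and from 8683 to 9627 CPM in wild-type vehicle. Of 6 upper-layer markers 2 were lower in knockout vehicle, Cux2 (log2 difference -0.32, edgeR adjusted p = 0.00564) and Rasgrf2 (-0.22, 0.0251), and the summed level ranged from 1053 to 1136 CPM in knockout vehicle and from 1118 to 1318 CPM in wild-type vehicle. Of 7 deep-layer markers 1 was higher, Rprm (0.78, edgeR adjusted p = 0.0230), with sums of 198.1 to 245.0 CPM in knockout vehicle and 136.3 to 212.1 CPM in wild-type vehicle. Of 8 markers of striatal projection neurons 4 differences were above 0 and 4 below, with a median of -0.07, and 2 genes were lower, among them Pde10a (-0.95, edgeR adjusted p = 0.0235), with sums of 277.0 to 291.3 CPM in knockout vehicle and 298.0 to 369.0 CPM in wild-type vehicle. Cux2 also had an interaction of 0.61 (edgeR adjusted p = 0.00799). It was at 196.8, 190.3 and 195.3 CPM in knockout clozapine, 162.0, 158.4 and 147.5 in knockout vehicle, 169.2, 152.2 and 154.8 in wild-type clozapine, and 207.8, 200.5 and 175.0 in wild-type vehicle. Like Rims3, it was lower in knockout vehicle than in wild-type vehicle and had an interaction above 0. Between the genotypes under clozapine the signs were opposite, 0.29 for Cux2 (edgeR adjusted p = 0.0280) and -0.28 for Rims3 (0.0548). Choroid plexus markers summed to 7.38 to 10.1 CPM in knockout vehicle and 4.74 to 60.2 CPM in wild-type vehicle, the top of which was wild-type vehicle 3. Without that library Rims3 and Rims1 passed under vehicle with log2 differences of -0.73 and -0.36, while Unc13a and Rims2 missed the threshold.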

How the data were processed

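Mouse frontal cortex RNA was sequenced in 12 libraries, per the labels' protocols after RNeasy extraction and an Illumina mRNA kit. Per the submitters' processing notes, STAR 2.5.1b and featureCounts were used with GRCm38. The authors deposited 1 value per gene and library, an estimated count, of which 7.39% are not whole. Values were rounded before testing, as had been planned for estimated counts. How shared reads were split and whether strand was used is not given in the sources used here. Identifiers matched GENCODE release 21 names for 46488 of 47069 genes. No column of another series was present.

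All contrasts came from 1 fit of the 12 libraries by group in edgeR 4.0.16 (R 4.3.3), with TMM scaling, filterByExpr (17286 kept, 29783 left out), a robust quasi-likelihood test and BH adjustment over all genes tested at 0.05. Replicate pairs differed by a chi-square of 4.27 to 9.98 per gene, so the spread between libraries sets the precision. The fit was tested on simulated data with known changes. Alternatives were DESeq2 1.42.0, limma-voom (limma 3.58.1), RLE scaling, no count filter, a replicate block, a correction for length and GC content (mgcv 1.9.3), fits of only the 2 groups, a threshold of 0.10 and leaving out each library. Sign counts without knockout vehicle 5 or wild-type vehicle 3 were added after seeing the data.

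The 44 genes and the lists were chosen with earlier results of these data known. Named were all genes of the set past the threshold, the 3 of smallest p where fewer than 3 passed, the highest and lowest of each role, and up to 4 genes past the threshold from each other list. Some genes that this rule names are not reported here. Promoter letters came from RefSeq.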

Additional observations from a re-analysis of the deposited data

Results flagged for a closer look

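In the fit of all 12 libraries the clozapine difference of Rims3 passed a test of the difference between genotypes, a call that other settings did not all keep. It was 0.32 on the log2 scale in the labelled knockout and -0.18 in wild type, so that the interaction was 0.50 (SE 0.10, edgeR adjusted p = 0.0361). The clozapine libraries were all higher than the vehicle libraries in the labelled knockout. In wild type they overlapped them. The interaction kept its call in 4 of 12 fits without 1 library, and lost it with the length and GC correction (edgeR adjusted p = 0.126) and with the replicate number as a block (0.175).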

How the results depend on the processing

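Of 320 alternative values of the genes named from the set, 274 kept direction and side of the threshold, 35 lost the call, 11 gained it and 0 changed sign. The 320 include genes named as not passing, which had no call to lose. The Rims3 interaction lost its call in 10 of 18 alternatives and Syn3 under clozapine in 6 of 19. Under vehicle, Stx1a and Rims2 each lost it in 7 of 19, Unc13a in 5 of 19, and Rims3 and Rims1 in 0 of 19. For genotype under vehicle, 5 genes were called, all lower. DESeq2 called 9 (1 higher, 8 lower) and limma-voom called 1 higher and 5 lower, and the higher gene was Rab3b in both. A fit of only the 2 groups called 2, and a threshold of 0.10 gave 10, with 3 to 7 without single libraries. For genotype under clozapine (1 called), no count filter gave 2, DESeq2 2, only the 2 groups 3 and a threshold of 0.10 2, with 0 to 2 without single libraries. For the interaction (1 called), no count filter gave 2, DESeq2 3, a threshold of 0.10 2 and the length and GC correction 0 (Rims3, adjusted p = 0.126), with 0 to 1 without single libraries. For clozapine in the labelled knockout (0 called), no count filter gave 1, DESeq2 2 and a threshold of 0.10 1, and every fit without 1 library gave 0. For clozapine in wild type the count was 0 under every alternative and 0 without each library. Rims2 under vehicle had an adjusted p of 0.0718 after the length and GC correction. In a fit of only the 2 groups it had 0.0743, Unc13a 0.0770 and Stx1a 0.0672. The cause of these changes was not tested. With 3 libraries a group, differences within the spread between libraries were not detectable.

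The labels do not say whether replicate numbers pair the libraries. Deviations from the group means had correlations of -0.08 to 0.123 (median -0.029) in 10 pairs with the same number. In 44 other pairs they were -0.208 to 0.15. Pairs with the same number did not stand out in this measure, which cannot settle whether libraries were prepared together. With the replicate number as a block, 4 genes were called for genotype under vehicle, 1 for genotype under clozapine, 0 for the interaction, 1 for clozapine in the labelled knockout and 0 in wild type.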
